A study of Homo sapiens with 24 samples.

Results

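The genes described here are 8 members of the HOXA cluster (HOXA3, HOXA4, HOXA5, HOXA6, HOXA7, HOXA9, HOXA10 and HOXA11) together with MEIS1 and PBX3. They were taken by gene symbol, 10 of the 23595 genes in each table, and all 10 had a row in all 4 tables. The choice was made with earlier results of these data known. They are followed in polyadenylated RNA of IMS-M2 and U937, human cell lines labelled as acute myeloid leukaemia. Cells had folic acid in the culture (+FA) or lacked it (-FA), and received OTX or the solvent DMSO, which makes 8 groups with 3 libraries in each and 24 libraries in all. OTX is an abbreviation in the labels, without dose or duration. From knowledge of the study it is birabresib, which blocks the bromodomains of BET proteins. IMS-M2 is known as a line with a mutated NPM1 gene, and U937 as a monocytic line with a PICALM-MLLT10 fusion. Both lesions are known for keeping HOXA genes switched on. Each condition is thus tested in single cell lines. Whether replicate libraries are separate cultures is not given in the labels, so the p-values measure only the spread between these libraries, which may be technical.

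HOX genes encode homeodomain transcription factors that give cells their position along the body axis in the embryo. In blood, the HOXA genes are active in stem and progenitor cells and are switched off as cells mature. HOXA9 and its neighbours bind DNA together with TALE homeodomain proteins, of which MEIS1 and the PBX proteins are the best known, and forced expression of HOXA9 with MEIS1 is a standard model of acute myeloid leukaemia. Methyltransferase complexes around KMT2A and menin, the elongation factors that work with DOT1L, and BET proteins are known to favour transcription of the cluster, while Polycomb complexes keep it silent.

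The values are FPKM, fragments scaled by transcript length and library size, so levels can be compared between genes of different length. Any change is a change relative to the rest of the library's RNA, and fewer cells of a type and less RNA per cell cannot be told apart. On the hg19 coordinates of the files, the HOXA members lie on chromosome 7, HOXA3 at 27145808 to 27166639, HOXA4 at 27168125 to 27170399 and HOXA11 at 27220775 to 27224835. HOXA5, HOXA6 and HOXA7 share 1 locus entry, 27179982 to 27196296, with the antisense gene HOXA-AS3. HOXA9 and HOXA10 share another, 27202056 to 27219880, with the read-through gene HOXA10-HOXA9, the antisense gene HOXA-AS4 and the microRNA gene MIR196B. How fragments were divided between the genes of a shared locus, and whether strand was used, is not given in the sources used here. The levels of those genes are therefore uncertain relative to each other. MEIS1 lies on chromosome 2 at 66662531 to 66799891 and PBX3 on chromosome 9 at 128509616 to 128729655.

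RefSeq's promoter table (build GRCh38.p14) holds windows for 9 of the 10 members, 16 windows in all, since some genes have several start sites. The 250 bases before the start are shown for HOXA9, HOXA10 and MEIS1, the genes with the highest levels or the largest changes, and for HOXA7 and HOXA11, whose OTX changes went opposite ways to those of HOXA9 in IMS-M2. They are written 5′ to 3′ on the gene's own strand, with matches to the 4 motifs searched on both strands in capitals: CACGTG (the E-box bound by MYC and related factors), TGACAG (the core bound by MEIS proteins), TGATTNAT (a composite PBX and HOX site) and CCAAT (the CCAAT box, ATTGG on the other strand).
HOXA9, chr7:27165538-27165787, minus strand: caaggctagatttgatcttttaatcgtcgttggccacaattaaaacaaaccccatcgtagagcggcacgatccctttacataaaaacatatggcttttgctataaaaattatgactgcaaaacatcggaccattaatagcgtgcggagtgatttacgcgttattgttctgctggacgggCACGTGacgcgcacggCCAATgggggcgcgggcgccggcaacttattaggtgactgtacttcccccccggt
HOXA10, the start nearer to HOXA9, chr7:27174321-27174570, minus strand: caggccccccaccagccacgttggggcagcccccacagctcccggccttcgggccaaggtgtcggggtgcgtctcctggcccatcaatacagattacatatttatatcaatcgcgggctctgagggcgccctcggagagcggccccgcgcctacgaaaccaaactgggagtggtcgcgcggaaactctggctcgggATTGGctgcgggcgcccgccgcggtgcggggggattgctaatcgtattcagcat
HOXA7, chr7:27156676-27156925, minus strand: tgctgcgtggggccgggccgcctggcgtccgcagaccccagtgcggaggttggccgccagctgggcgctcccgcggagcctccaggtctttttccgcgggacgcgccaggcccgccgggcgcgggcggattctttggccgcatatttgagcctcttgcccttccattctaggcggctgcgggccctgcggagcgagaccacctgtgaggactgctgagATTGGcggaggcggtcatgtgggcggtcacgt
HOXA11, chr7:27185233-27185482, minus strand: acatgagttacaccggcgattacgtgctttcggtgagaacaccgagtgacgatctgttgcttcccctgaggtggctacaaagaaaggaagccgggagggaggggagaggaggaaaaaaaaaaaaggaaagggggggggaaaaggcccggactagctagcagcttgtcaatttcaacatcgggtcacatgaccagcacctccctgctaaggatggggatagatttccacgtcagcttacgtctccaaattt
MEIS1, chr2:66434875-66435124, plus strand: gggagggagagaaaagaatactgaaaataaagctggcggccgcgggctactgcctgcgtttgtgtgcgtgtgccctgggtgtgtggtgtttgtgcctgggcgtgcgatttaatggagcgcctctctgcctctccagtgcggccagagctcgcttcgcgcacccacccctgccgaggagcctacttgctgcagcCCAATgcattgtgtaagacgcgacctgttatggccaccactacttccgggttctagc

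In these letters the HOXA9 window held an E-box whose first base lay 71 bases before the start, and a CCAAT box 55 bases before it. HOXA10, HOXA7 and MEIS1 each held a CCAAT box, beginning 54, 32 and 57 bases before the start, and the HOXA11 window held none of the 4 motifs. Among the members, 7 had a window with CCAAT, 3 one with CACGTG (HOXA3, HOXA4 and HOXA9), 2 one with TGACAG (HOXA4 and PBX3) and 0 one with TGATTNAT. Of all 35116 windows of this length in the table, 32.0% held CCAAT, 6.34% CACGTG, 13% TGACAG and 2.48% TGATTNAT. These are shares of windows, while a member was counted if any of its windows matched. HOXA3 had 7 windows and HOXA10 had 2, so the counts and the shares are not directly comparable. No matches of 2 motifs overlapped in the windows printed here. A match is a stretch of letters only, and no binding was measured.

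The sum of the 8 HOXA members ranged from 58.9 to 353.6 FPKM per library, and HOXA9 and HOXA10 made up 53.0% to 83.2% of it. HOXA3 to HOXA7 together made up 20.1% to 39.8% of the sum in the IMS-M2 libraries and 5.43% to 12.3% in the U937 libraries. The remainder is HOXA11. Beyond the members, HOXA13, the gene at the far end of the cluster, had group means of 17.2 to 44.4 FPKM in U937 and of 0.471 to 0.74 FPKM in IMS-M2. Levels of different lines, and of cells with and without folic acid, come from separate tables whose common scaling is not stated, so they are set side by side with no test.

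**Figure D1:**
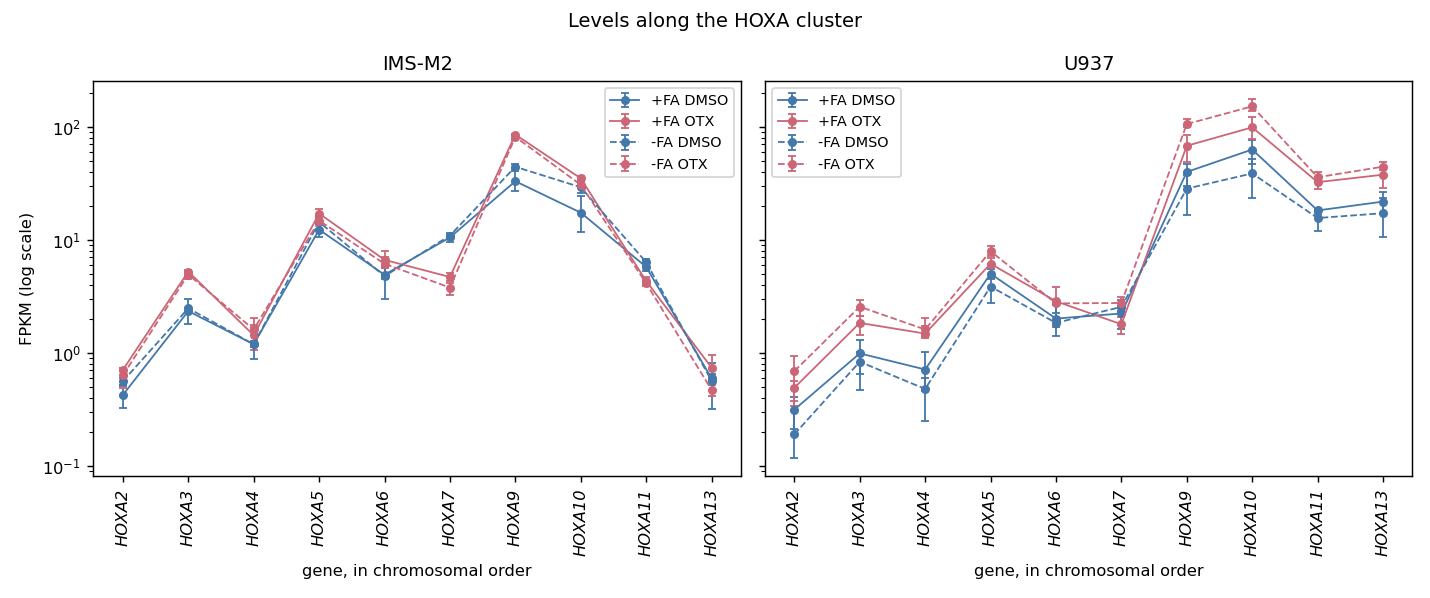
Mean FPKM of 10 HOXA genes, on a log axis, in the order in which they lie on the chromosome, for the 4 groups of each line. Bars run from the lowest to the highest of 3 libraries, and the U937 profile stays high through HOXA13 where that of IMS-M2 drops to group means of 0.471 to 0.74 FPKM.

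Libraries of 1 group did not always sit together, and the HOXA members tended to be high or low in the same library. HOXA4 followed the others least, with a Pearson's r of within-group log2 deviations from -0.18 (HOXA7) to 0.44 (HOXA11). The tendency was not seen in every group: in IMS-M2 +FA OTX no library was highest for more than 3 of the 8. In U937 -FA DMSO, column 1 of the table had the highest value of its group for 8 of the 8 HOXA members and column 2 the lowest for 8 of 8. Replicate 1 of IMS-M2 +FA DMSO was highest for 7, and replicate 1 of U937 +FA DMSO and replicate 3 of U937 +FA OTX were lowest for 7. MEIS1 lay on the other side: in 8 of 8 groups the library with the lowest summed HOXA level had the highest MEIS1 level, and in 5 of 8 the library with the highest sum had the lowest MEIS1. With the mean log2 deviation of the 8 genes in place of their sum these counts were 6 and 4 of 8. Transcript GC content was 47.8% to 60.1% for the HOXA members, 41.7% for MEIS1 and 44.0% for PBX3, beside a median of 48.7% over the genes tested. The library with the highest HOXA sum was also the one whose values leaned most to GC-rich genes in 5 of 8 groups, and the one with the lowest sum leaned least in 4 of 8. The part of GC content in this was not tested. Where leaving out a library named here changed a call of a member, the value without it is given beside the result.

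**Figure D2:**
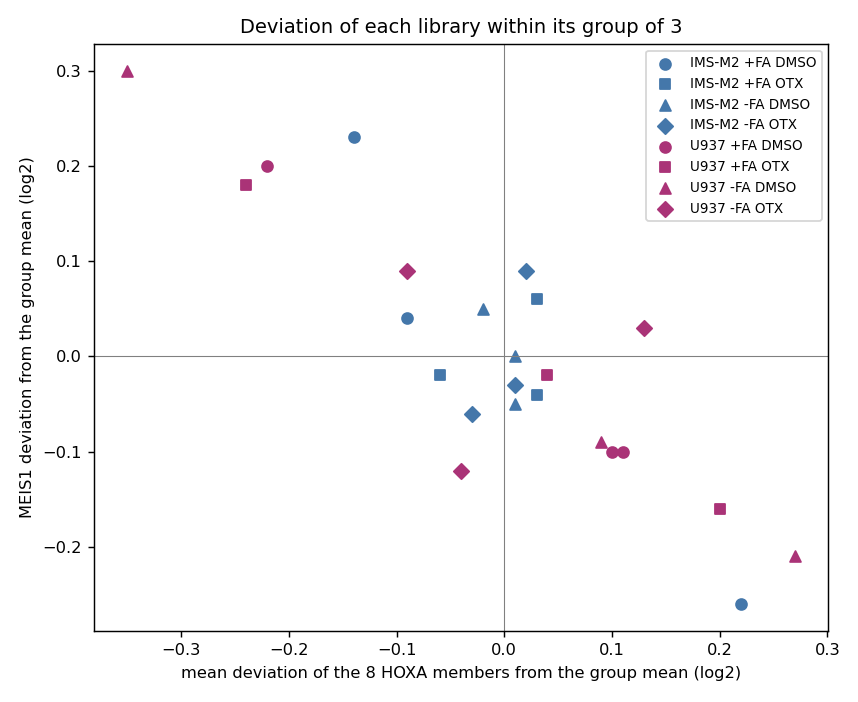
Each point is 1 of the 24 libraries, with the mean log2 deviation of the 8 HOXA members from their group mean on the horizontal axis and that of MEIS1 on the vertical axis. The libraries farthest to the left, with deviations of -0.35, -0.24 and -0.22, have MEIS1 deviations of 0.3, 0.18 and 0.2.

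Treatment with OTX raised more of the 10 members than it lowered, in every line and folic acid condition. Limma, with Benjamini-Hochberg adjustment over all genes tested and a threshold of 0.05, called 5 higher and 2 lower in IMS-M2 +FA, where 63.2% of all genes tested were called (29.8% higher and 33.4% lower). In IMS-M2 -FA 4 were called higher and 2 lower, beside 57.5% of all genes (27.5% higher and 30.0% lower). In U937 +FA 6 were called higher and 0 lower, beside 56.1% of all genes (29.1% higher and 27.0% lower), and 7 of the 10 had an unadjusted p under 0.05. In U937 -FA 8 were called higher and 0 lower, beside 59.8% (28.0% higher and 31.7% lower), and 8 had an unadjusted p under 0.05. In both lines the number called in either direction, 6 to 8 of 10, is near the share of all genes. HOXA3 and HOXA4 are among those called in U937, where only their OTX group means reached the 1 FPKM needed for testing. The percentages are for adjusted p, and the share of all genes with an unadjusted p under 0.05 was not computed. The median log2 change of the members was 0.32 and 0.27 in IMS-M2 with and without folic acid and 0.60 and 0.86 in U937, beside -0.03, -0.01, 0.02 and -0.02 over all genes tested. The OTX libraries lay all above the DMSO libraries for 5 members and all below for 2 in IMS-M2 +FA (30.4% and 33.8% of all genes), and for 4 and 2 in IMS-M2 -FA (33.1% and 35.0%). In U937 +FA these counts were 7 and 0 (32.0% and 30.4%), and in U937 -FA 9 and 0 (30.3% and 33.7%).

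HOXA9 was listed above HOXA10 in all 12 libraries of IMS-M2 and under it in all 12 of U937, a ranking that depends on how fragments of their shared locus were divided. OTX raised HOXA9 in IMS-M2 with or without folic acid and in U937 -FA, while its call in U937 +FA was lost under many settings. In IMS-M2 +FA the DMSO libraries had 40.8, 31.0 and 27.3 FPKM of HOXA9 and the OTX libraries 85.8, 86.4 and 84.2 FPKM. Every OTX library lay above every DMSO library. The mean ratio was 2.59, and the log2 change of 1.36 (SE 0.12) was called by limma (adjusted p = 6.66e-07), at rank 115 of 11223 genes from the highest. In IMS-M2 -FA the DMSO libraries had 47.3, 43.4 and 42.0 FPKM and the OTX libraries 76.6, 81.7 and 86.3 FPKM. The groups again did not overlap, with a log2 change of 0.87 (SE 0.12, limma, adjusted p = 4.38e-05).

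HOXA9 in U937 was more scattered. With folic acid its DMSO libraries had 29.9, 43.3 and 46.5 FPKM and its OTX libraries 84.8, 70.2 and 48.9 FPKM, so the lowest OTX library lay just above the highest DMSO library. The log2 change was 0.74 (SE 0.28, limma, adjusted p = 0.0405). This call was lost without DMSO replicate 1 (0.55, adjusted p = 0.143), DMSO replicate 2 (0.81, 0.0612), OTX replicate 1 (0.57, 0.138) or OTX replicate 2 (0.70, 0.1). It was also lost with the GC trend removed (0.68, 0.074), no filter on low genes (0.74, 0.0735) and median-ratio rescaling (0.71, 0.0507). When the read-through gene HOXA10-HOXA9 was added to HOXA9, the log2 change was 0.94 (limma, adjusted p = 0.00216). Without folic acid the 3 DMSO libraries had 31.4, 37.3 and 16.5 FPKM and the 3 OTX libraries 99.1, 117.9 and 100.4 FPKM. This was a ratio of means of 3.73 and a log2 change of 1.93 (SE 0.28, limma, adjusted p = 0.00012), rank 43 of 11194 genes. Without the low DMSO column 2 it was 1.60 (adjusted p = 0.000108).

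HOXA10, which lies next to HOXA9 and is likewise known for blocking myeloid maturation when forced, had the highest listed level of the HOXA members in U937. It lay 1.31 to 1.76 times above HOXA9 there, and above the sum of HOXA9 and their read-through row in 12 of 12 libraries. As the locus is shared, this order is uncertain. In U937 -FA its DMSO libraries had 41.1, 51.6 and 23.3 FPKM and its OTX libraries 142.0, 176.4 and 137.3 FPKM. The log2 change was 2.01 (SE 0.27, limma, adjusted p = 6.71e-05), rank 33 of 11194 genes from the highest, and 1.69 without DMSO column 2. In U937 +FA, DMSO gave 46.6, 76.2 and 66.2 FPKM and OTX 121.8, 96.6 and 78.5 FPKM. The groups did not overlap, yet the log2 change of 0.65 missed the threshold (95% interval 0.06 to 1.24, limma, adjusted p = 0.0589). It passed when OTX replicate 3 was left out (0.80, adjusted p = 0.043) or DMSO replicate 2 was (0.80, 0.0476), with the 6 libraries of that table alone (0.65, 0.0258) and with the length trend removed (0.74, 0.0313). Leaving out single libraries gave 0.45 to 0.80.

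In IMS-M2 +FA, HOXA10 had 24.6, 15.9 and 11.8 FPKM in DMSO and 34.7, 36.6 and 33.9 FPKM in OTX. It rose by a log2 of 1.03 (SE 0.18, limma, adjusted p = 0.000364), a value that ran from 0.79 to 1.30 as single libraries were left out. In IMS-M2 -FA, DMSO gave 30.9, 30.8 and 26.0 FPKM and OTX 28.9, 33.3 and 30.0 FPKM. These ranges overlapped, and the log2 change was 0.07 (95% interval -0.33 to 0.47, adjusted p = 0.76). The OTX levels of IMS-M2 with and without folic acid, 35.0 ± 1.39 and 30.7 ± 2.33 FPKM (mean and SD, n = 3 each), lay closer to each other than the DMSO levels, 17.4 ± 6.55 and 29.2 ± 2.79 FPKM.

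**Figure D3:**
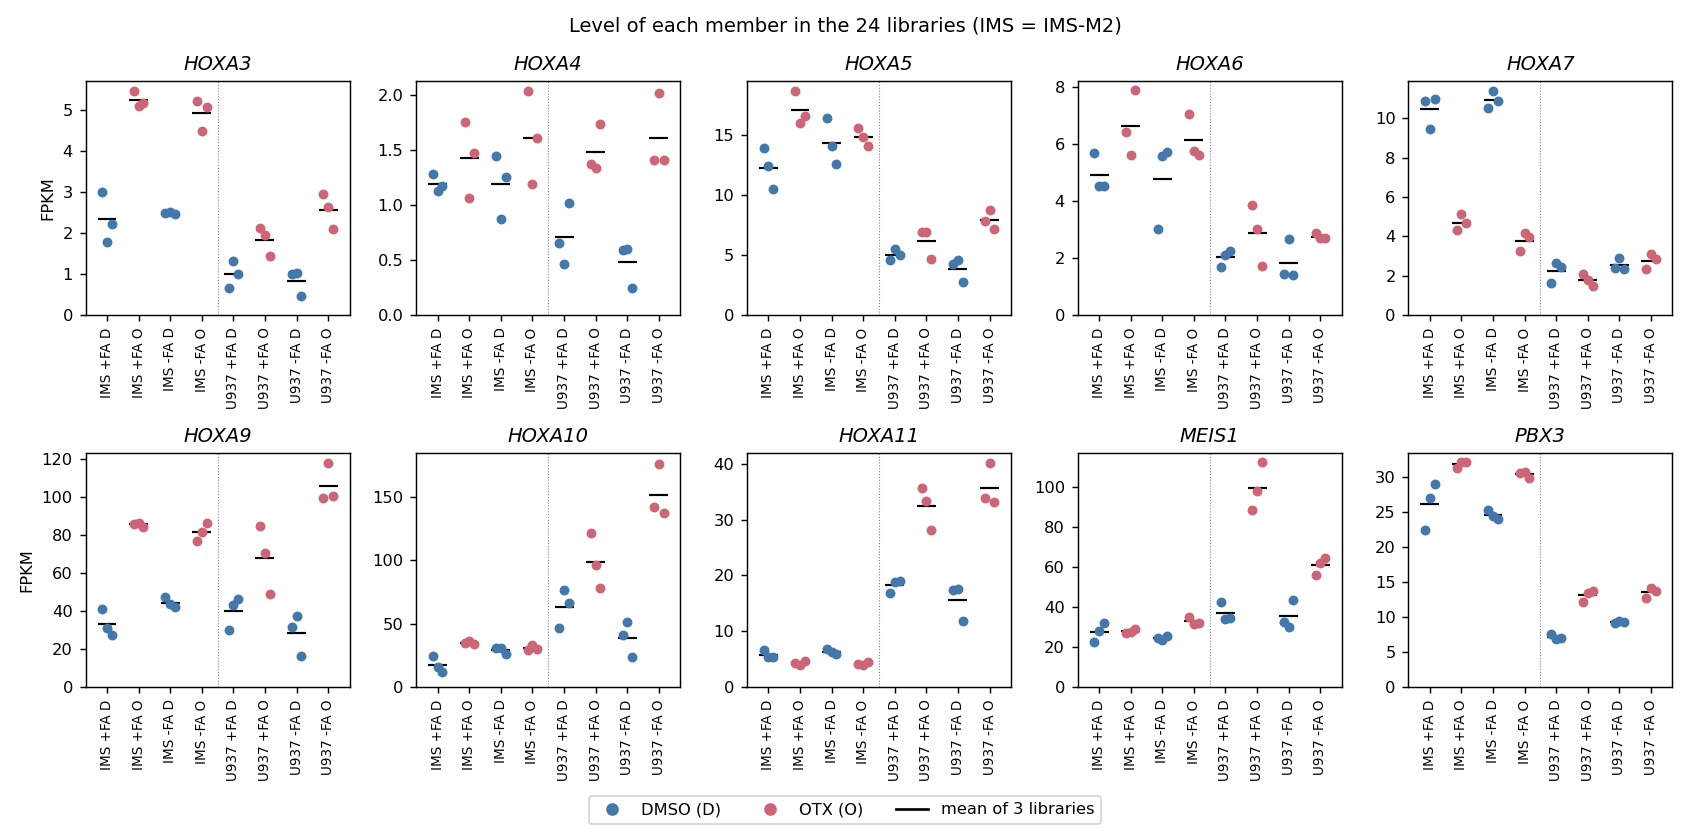
FPKM of each of the 10 genes in the 24 libraries, 1 panel per gene, with DMSO in blue, OTX in red and a bar at the mean of 3 libraries. HOXA7 and HOXA11 fell with OTX in IMS-M2, where HOXA3 and HOXA9 rose, and MEIS1 reached its highest values, 88.6 to 112.6 FPKM, in U937 +FA OTX.

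HOXA11, the most posterior of the cluster genes chosen here, moved in opposite directions in the 2 lines. In IMS-M2 +FA it had 6.6, 5.37 and 5.31 FPKM in DMSO and 4.32, 3.97 and 4.66 FPKM in OTX, and in IMS-M2 -FA 6.78, 6.26 and 5.98 against 4.06, 3.91 and 4.41 FPKM. OTX libraries lay below DMSO libraries in both. HOXA11 fell by 0.34 on the log2 scale with folic acid (SE 0.088, limma, adjusted p = 0.00444) and by 0.52 without it (SE 0.088, adjusted p = 0.000283). The first call was lost with the GC trend removed (-0.16, adjusted p = 0.0761). In U937 +FA it had 16.9, 18.8 and 18.9 FPKM in DMSO and 35.7, 33.4 and 28.1 FPKM in OTX, and in U937 -FA 17.4, 17.6 and 11.9 against 33.9, 40.1 and 33.2 FPKM. Here every OTX library lay above every DMSO library, and HOXA11 rose by a log2 of 0.79 (SE 0.14, limma, adjusted p = 0.000619) and 1.16 (SE 0.14, adjusted p = 3.61e-05).

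HOXA7 was the HOXA member that OTX lowered most in IMS-M2. It had 10.9, 9.48 and 11 FPKM in DMSO and 4.30, 5.12 and 4.65 FPKM in OTX with folic acid, and 10.5, 11.4 and 10.9 against 3.23, 4.15 and 3.96 FPKM without it. Both sets of OTX libraries were under all their controls. HOXA7 fell by 1.01 (SE 0.091, limma, adjusted p = 9.83e-07) and by 1.32 on the log2 scale (SE 0.091, adjusted p = 9.88e-08). These are ratios of means of 0.449 and 0.346. In U937, where HOXA7 had 1.48 to 3.12 FPKM in the 12 libraries, the groups overlapped and the log2 changes were -0.20 (95% interval -0.50 to 0.10, adjusted p = 0.228) and 0.08 (95% interval -0.22 to 0.38, adjusted p = 0.634). Without DMSO replicate 1 of U937 +FA, HOXA7 was called lower there (-0.35, adjusted p = 0.0334).

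Of the anterior and middle genes, HOXA3 was called higher in all 4 OTX comparisons. In U937 only its OTX group means, 1.84 and 2.56 FPKM, reached the 1 FPKM needed for testing. Its DMSO means there were 0.989 and 0.834 FPKM. In IMS-M2 it had 3.0, 1.79 and 2.23 FPKM in DMSO and 5.46, 5.10 and 5.17 FPKM in OTX with folic acid, a log2 change of 0.92 (SE 0.11, limma, adjusted p = 1.15e-05). Without folic acid it had 2.48, 2.51 and 2.47 against 5.23, 4.49 and 5.08 FPKM, a log2 change of 0.77 (adjusted p = 6.37e-05). The ratios of means were 2.24 and 1.98. In U937 it was lower, 0.646, 1.31 and 1.01 FPKM in DMSO against 2.12, 1.94 and 1.45 FPKM in OTX with folic acid, a log2 change of 0.52 (limma, adjusted p = 0.0166). That call was lost without DMSO replicate 1 (0.39, adjusted p = 0.0678), OTX replicate 1 (0.45, 0.0586) or OTX replicate 2 (0.49, 0.0513). Without folic acid U937 had 1.01, 1.02 and 0.469 FPKM in DMSO and 2.94, 2.63 and 2.1 FPKM in OTX, and the log2 change was 0.96 (limma, adjusted p = 0.000329). At such levels a pseudocount of 1 FPKM understates the change, which was 1.56 with a pseudocount of 0.1.

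HOXA4, the lowest of the members, stayed between 0.249 and 2.04 FPKM in the 24 libraries. In U937 only its OTX group means reached the 1 FPKM needed for testing, and its DMSO means were 0.712 and 0.479 FPKM. HOXA4 rose in U937 by a log2 of 0.54 with folic acid (limma, adjusted p = 0.007) and 0.82 without it (adjusted p = 0.000463). These values are compressed by the pseudocount: with 0.1 FPKM they were 1.01 and 1.62, and the ratios of means were 2.08 and 3.37. In IMS-M2, HOXA4 was not called (0.14 and 0.25, adjusted p = 0.394 and 0.14). With the GC trend removed it was called there in both conditions (0.35, adjusted p = 0.0119, and 0.39, 0.00712). In IMS-M2 -FA it was also called with the length trend removed (0.41, 0.0147) and without OTX replicate 2 (0.37, 0.042). HOXA5, a regulator of myeloid against erythroid fate, had 10.5 to 18.7 FPKM in IMS-M2 and 2.78 to 8.75 FPKM in U937. It was called higher in IMS-M2 +FA, with 13.9, 12.4 and 10.5 FPKM in DMSO and 18.7, 16.0 and 16.6 FPKM in OTX (log2 0.45, limma, adjusted p = 0.00334). It was also called higher in U937 -FA, with 4.26, 4.54 and 2.78 against 7.86, 8.75 and 7.19 FPKM (log2 0.89, adjusted p = 0.000562). In the other two comparisons its log2 change was 0.05 (95% interval -0.19 to 0.29) in IMS-M2 -FA and 0.23 (95% interval -0.12 to 0.59) in U937 +FA. The latter was called without OTX replicate 3 (0.40, adjusted p = 0.0499) and with the length trend removed (0.39, 0.041). HOXA6 was called in none of the 4, with log2 changes from 0.32 to 0.43 (adjusted p from 0.0869 to 0.195). With the length trend removed it passed the threshold in all 4 (adjusted p from 0.0192 to 0.0484), and with the GC trend removed in all but U937 +FA (0.0207 to 0.0367). It also passed in IMS-M2 +FA with the 6 libraries of that table alone (0.37, 0.0416), in U937 +FA without OTX replicate 3 (0.55, 0.0224) and in U937 -FA without DMSO column 1 (0.63, 0.014).

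MEIS1, the TALE cofactor that HOXA9 is known to need in leukaemia models, showed its largest change in U937. In U937 +FA the DMSO libraries had 42.6, 34.2 and 34.3 FPKM of MEIS1 and the OTX libraries 88.6, 98.0 and 112.6 FPKM. No OTX value came near a DMSO value. The ratio of means was 2.69 and the log2 change 1.41 (SE 0.14, limma, adjusted p = 9.2e-06), rank 87 of 11194 genes from the highest. In U937 -FA the values were 32.7, 29.9 and 43.3 FPKM in DMSO and 56.0, 62.3 and 64.7 FPKM in OTX, a log2 change of 0.79 (SE 0.14, limma, adjusted p = 0.000598). In IMS-M2 -FA, MEIS1 had 24.5, 23.7 and 25.6 FPKM in DMSO and 35.0, 31.4 and 32.2 FPKM in OTX, a log2 change of 0.40 (SE 0.10, limma, adjusted p = 0.00555). In IMS-M2 +FA, with 22.4, 27.9 and 31.9 against 27.2, 27.4 and 29.2 FPKM, the groups overlapped and the log2 change was 0.04 (95% interval -0.19 to 0.27, adjusted p = 0.751).

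PBX3, a TALE protein that binds DNA with HOX proteins and is known as a partner of HOXA9 in leukaemia, was called higher in all 4 comparisons. Its 4 IMS-M2 group means were 24.6 to 31.9 FPKM and its 4 U937 group means 7.15 to 13.6 FPKM. In U937 +FA it went from 7.63, 6.84 and 6.98 FPKM in DMSO to 12.1, 13.4 and 13.8 FPKM in OTX, a log2 change of 0.79 (SE 0.072, limma, adjusted p = 4.31e-06). In U937 -FA it went from 9.12, 9.42 and 9.23 to 12.8, 14.2 and 13.8 FPKM (0.51, SE 0.072, adjusted p = 0.0001). In IMS-M2 the changes were smaller. With folic acid DMSO gave 22.4, 27.1 and 29.1 FPKM and OTX 31.4, 32.2 and 32.2 FPKM, a log2 change of 0.28 (SE 0.084, limma, adjusted p = 0.0108), and the call was lost when only the 6 libraries of that table were fitted (adjusted p = 0.0529). Without folic acid DMSO gave 25.3, 24.4 and 24 FPKM and OTX 30.6, 30.8 and 29.9 FPKM (0.30, SE 0.084, adjusted p = 0.00893).

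**Figure D4:**
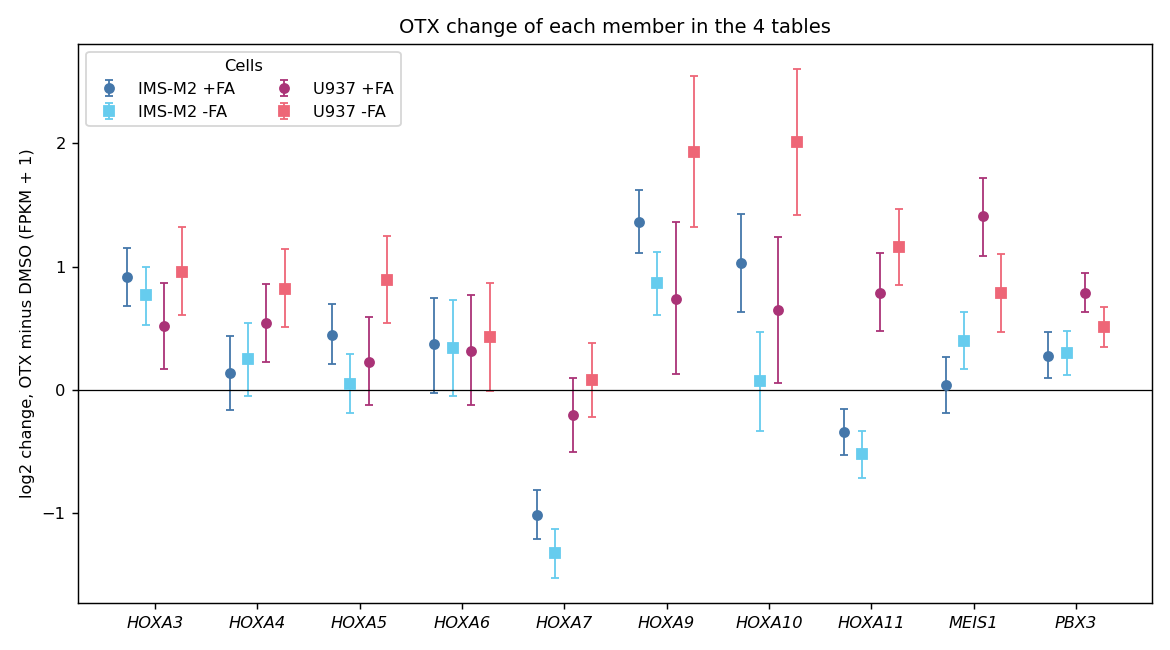
Log2 change of FPKM + 1, OTX minus DMSO, of the 10 genes in the 4 line and folic acid conditions, with 95% intervals from limma. The intervals of HOXA9, HOXA3 and PBX3 lie wholly above 0 in all 4, and those of HOXA7 and HOXA11 lie wholly below 0 in IMS-M2. The HOXA10 values run from 0.07 to 2.01.

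The order of the 8 group levels differed between members. HOXA9 had its highest mean in U937 -FA OTX, 105.8 ± 10.5 FPKM, followed by IMS-M2 +FA OTX (85.4 ± 1.14), IMS-M2 -FA OTX (81.5 ± 4.85) and U937 +FA OTX (68.0 ± 18, each a mean and SD of 3 libraries). The last 3 of these overlapped from one to the next. The 4 DMSO groups followed, at 44.3 ± 2.76 (IMS-M2 -FA), 39.9 ± 8.8 (U937 +FA), 33.0 ± 6.97 (IMS-M2 +FA) and 28.4 ± 10.7 FPKM (U937 -FA), and each overlapped the next. HOXA10 was ordered by line, with the 4 U937 groups (38.7 to 151.9 FPKM) above the 4 of IMS-M2 (17.4 to 35.0 FPKM), but the lowest U937 group, -FA DMSO, overlapped the highest of IMS-M2. HOXA11 had all 4 U937 groups above all 4 of IMS-M2 with no overlap at the border, and HOXA5 and PBX3 had the reverse order, also with no overlap there. MEIS1 had the 4 U937 groups above the 4 of IMS-M2, but U937 -FA DMSO (35.3 ± 7.07 FPKM) overlapped IMS-M2 -FA OTX (32.9 ± 1.85 FPKM).

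Between DMSO cells with and without folic acid, the ranges of 8 of the 10 members overlapped in each line, and these are levels set side by side with no test. In IMS-M2 DMSO, HOXA10 had 17.4 ± 6.55 FPKM with folic acid and 29.2 ± 2.79 FPKM without it, and HOXA9 had 33.0 ± 6.97 and 44.3 ± 2.76 FPKM. These were the pairs that did not overlap in IMS-M2. In U937 DMSO the values went the other way, with 63.0 ± 15 and 38.7 ± 14.3 FPKM of HOXA10 and 39.9 ± 8.8 and 28.4 ± 10.7 FPKM of HOXA9, and here the ranges overlapped. PBX3 in U937 DMSO had 6.84 to 7.63 FPKM with folic acid and 9.12 to 9.42 FPKM without it, and HOXA5 4.55 to 5.47 and 2.78 to 4.54 FPKM, both with no overlap. MEIS1 had 27.4 ± 4.75 and 24.6 ± 0.944 FPKM in IMS-M2 and 37.0 ± 4.78 and 35.3 ± 7.07 FPKM in U937, and both pairs overlapped.

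Whether the OTX change depended on folic acid was tested as the change without minus the change with folic acid. In IMS-M2, limma called 1 member, HOXA10, with a difference of -0.96 (SE 0.26, adjusted p = 0.047), beside 6.94% of all genes (3.33% higher and 3.61% lower). Of the 10 members 5 had an unadjusted p under 0.05, a threshold at which the share of all genes was not computed. The HOXA10 call depended on single libraries: it was lost in 10 of the 12 fits with 1 library left out, with values from -1.04 to -0.72 and adjusted p from 0.0612 to 0.123. It was also lost with no filter (adjusted p = 0.0927), median-ratio rescaling (0.0582) and the length trend removed (0.0649). Without DMSO replicate 1 of IMS-M2 +FA, limma called 4 members, adding HOXA5 (-0.50), HOXA9 (-0.65) and MEIS1 (0.49). That fit called 3429 genes in all, against 779 of 11223 with every library, so the 4 members are not to be set beside 6.94%. With all libraries HOXA9 had -0.50 (adjusted p = 0.0796), HOXA5 -0.41 (0.111), HOXA7 -0.32 (0.125) and MEIS1 0.36 (0.127), and the other 5 members lay between -0.17 and 0.11.

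In U937, limma called 0 of the 10 members for this difference, beside 2.01% of all genes, and 5 had an unadjusted p under 0.05. The 2.01% is for adjusted p, and no share of all genes was computed for the unadjusted p. HOXA10 had the largest difference, 1.36 (95% interval 0.52 to 2.19, adjusted p = 0.0588), then HOXA9 with 1.19 (95% interval 0.32 to 2.06, adjusted p = 0.0785). HOXA5 had 0.66 (adjusted p = 0.0827), MEIS1 -0.62 (0.0746) and PBX3 -0.28 (0.0916). The signs for HOXA10, HOXA9, HOXA5 and MEIS1 are the reverse of those in IMS-M2, and the difference between lines in this respect was not tested. Without DMSO replicate 1 of U937 +FA, HOXA9 (1.38, adjusted p = 0.0403), HOXA10 (1.56, 0.028) and MEIS1 (-0.72, 0.0364) were called. Without column 1 of U937 -FA DMSO these 3 and HOXA5 were called, at 1.42, 1.60, -0.73 and 0.76. These 2 fits called 2184 and 2704 genes in all, against 225 of 11194 with every library, so their member counts do not stand beside 2.01%.

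The lines were compared as the OTX change in U937 minus that in IMS-M2, which uses the same libraries as the comparisons above. A difference above 0 means a higher signed change in U937. With folic acid 4 members had one that was called, beside 50.6% of all genes called (27.7% higher and 22.9% lower): MEIS1 by 1.37 (SE 0.18, limma, adjusted p = 4.25e-06), HOXA11 by 1.14 (SE 0.17, adjusted p = 1.89e-05), HOXA7 by 0.81 (SE 0.17, adjusted p = 0.000496) and PBX3 by 0.51 (SE 0.10, adjusted p = 0.000543). For HOXA7 the difference is the fall of 1.01 in IMS-M2 set against a change in U937 of -0.20 that was not called. HOXA9 and HOXA10 were not called, with differences of -0.62 (95% interval -1.30 to 0.06) and -0.38 (95% interval -1.11 to 0.36). Without DMSO replicate 1 of U937 +FA, HOXA9 (-0.81, adjusted p = 0.0442) and HOXA3 (-0.53, 0.0319) were called, both with the lower change in U937. HOXA3 was also called without DMSO replicate 1 of IMS-M2 +FA (-0.54, 0.0269) and with the GC trend removed (-0.54, 0.0221). HOXA4 was called above 0 without DMSO replicate 3 of U937 +FA (0.53, 0.0418). Without folic acid the genes were partly others. HOXA10 (1.94, SE 0.35, limma, adjusted p = 0.000176), HOXA11 (1.68, adjusted p = 1.41e-07), HOXA7 (1.40, adjusted p = 1.04e-06), HOXA9 (1.07, adjusted p = 0.0121), HOXA5 (0.85, adjusted p = 0.00241) and HOXA4 (0.57, adjusted p = 0.0297) were called above 0, 6 members, beside 43.0% of all genes (21.5% higher and 21.5% lower). HOXA7 again fell in IMS-M2, by 1.32, with a change of 0.08 in U937 that was not called. MEIS1 (0.38, 95% interval 0.00 to 0.77) and PBX3 (0.21, 95% interval -0.01 to 0.43) were not. Both were called with median-ratio rescaling (0.43 and 0.26) and with the GC trend removed (0.46 and 0.29), and MEIS1 also with the length trend removed (0.45, adjusted p = 0.0284) and without DMSO column 2 of U937 -FA (0.54, 0.0149). The HOXA4 call was lost in 5 of the 12 fits without 1 library, with values from 0.45 to 0.55.

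The rest of the HOXA locus was followed through 12 listed genes, of which 9 had a row of their own. HOXA10-AS and HOXA-AS4 are names of the same gene. Limma called 1 of 3 tested higher in IMS-M2 +FA, 1 higher and 1 lower of 3 in IMS-M2 -FA, 3 higher of 6 in U937 +FA, and 4 higher and 1 lower of 6 in U937 -FA. Over all genes tested the shares called higher and lower, in the same order of comparisons, were 29.8% and 33.4%, 27.5% and 30.0%, 29.1% and 27.0%, and 28.0% and 31.7%. The counts of this list and of those that follow stand beside these shares, and with so few genes nothing particular to a list is read from them. HOXA13 rose in U937 +FA from 17.0, 26.6 and 21.9 FPKM to 44.1, 40.3 and 28.7 FPKM (log2 0.76, limma, adjusted p = 0.0228). In U937 -FA it rose from 17.6, 23.4 and 10.5 to 41.2, 48.6 and 43.3 FPKM (1.38, adjusted p = 0.000607).

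Among the antisense and long noncoding transcripts of the locus, reads of the sense and antisense genes cannot be told apart unless strand was used in counting. HOXA-AS4, which shares its locus entry with HOXA9 and HOXA10, had 4.11, 3.99 and 3.66 FPKM in IMS-M2 +FA DMSO and 11.9 FPKM in each of the 3 OTX libraries (log2 1.39, limma, adjusted p = 1.27e-07). In IMS-M2 -FA it rose by 0.81 (adjusted p = 2.03e-05). HOXA11-AS, the antisense neighbour of HOXA11, rose in U937 by 0.87 with folic acid (adjusted p = 0.00211) and 1.59 without it (2.78e-05), and in IMS-M2 -FA fell by 0.55 (0.000313). In IMS-M2 +FA HOXA11-AS was not called (-0.03, 0.799). The change without minus with folic acid in IMS-M2 was called for HOXA11-AS (-0.52, limma, adjusted p = 0.0404) and HOXA-AS4 (-0.58, 0.0369). Fits with 1 library left out were not examined for these rows. HOTAIRM1, a noncoding RNA beside HOXA2 that is known for its rise in myeloid maturation, had 2.17, 3.52 and 1.27 FPKM in U937 -FA DMSO and 8.49, 9.10 and 6.47 FPKM in OTX (1.49, adjusted p = 0.00169). In U937 +FA the groups overlapped, with means of 3.45 FPKM of HOTAIRM1 in DMSO and 3.05 FPKM in OTX (-0.24, adjusted p = 0.538), and in IMS-M2 its log2 changes of 0.27 and 0.32 were not called (adjusted p = 0.0946 and 0.0541). HOTTIP, transcribed beyond HOXA13, fell by 0.26 in U937 -FA (adjusted p = 0.0173), from 2.16, 1.91 and 2.27 FPKM to 1.55, 1.5 and 1.72 FPKM, where HOXA13 rose.

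The read-through gene HOXA10-HOXA9 was the least even of these rows. In U937 +FA it had 0, 1.71 and 0.796 FPKM in DMSO and 2.04, 10.9 and 17.3 FPKM in OTX (log2 2.36, SE 0.72, limma, adjusted p = 0.0152). In U937 -FA it had 0, 0.678 and 5.67 FPKM in DMSO and 2.79, 2.44 and 3.59 FPKM in OTX, the groups overlapped and it was not called (0.81, adjusted p = 0.352). The U937 +FA OTX library with the lowest HOXA9 value, 48.9 FPKM, had the highest value of this row. The sum of both rows in these 3 OTX libraries was 86.8, 81.1 and 66.3 FPKM. MIR196B was listed at 0 in all libraries, and libraries of polyadenylated RNA hold few microRNAs. HOXA2 had group means of 0.19 to 0.707 FPKM and HOXA-AS3 of 0.105 to 0.44 FPKM, under the level at which genes were tested.

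Of 9 other TALE homeobox genes listed, 5 were tested in IMS-M2, where 33.4% and 30.0% of all genes were called lower with and without folic acid. Limma called 0 higher and 4 lower with folic acid (median log2 change -0.23) and 1 higher and 4 lower without it (-0.27). TGIF2, a TALE repressor, fell from 19.3 ± 2.44 to 14.3 ± 1.02 FPKM in IMS-M2 +FA (log2 -0.40, adjusted p = 0.00146) and from 17.0 ± 0.658 to 7.58 ± 1.01 FPKM in U937 +FA (log2 -1.07, adjusted p = 2.77e-05). Of 6 tested in U937, 3 rose and 3 fell with folic acid (median 0.11), and 2 rose and 2 fell without it (-0.04). MEIS3, a relative of MEIS1, rose from 0.671 ± 0.0634 to 3.27 ± 0.572 FPKM in U937 +FA (log2 1.35, adjusted p = 1.53e-06) and from 0.739 ± 0.107 to 5.70 ± 0.705 FPKM in U937 -FA (1.94, adjusted p = 1.06e-07). Only the OTX group means of MEIS3 reached the 1 FPKM needed for testing in U937. MEIS2 fell in both U937 conditions, by 0.29 and 0.54 on the log2 scale.

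Genes known to favour HOXA transcription (30 listed, 27 tested) split in both lines. Limma called 9 higher and 3 lower in IMS-M2 +FA (median log2 change 0.15), 14 and 4 in IMS-M2 -FA (0.22), 9 and 3 in U937 +FA (0.16), and 8 and 6 in U937 -FA (-0.06). AFF1, a scaffold of the super elongation complex, rose in all 4, by 1.21, 1.34, 0.88 and 0.78. MLLT6, a relative of the fusion partner MLLT10, fell in all 4, by 1.33, 1.07, 0.50 and 0.88 on the log2 scale. PSIP1, the chromatin reader that works with menin, rose in IMS-M2 +FA from 21.0 ± 2.02 to 49.6 ± 5.73 FPKM (log2 1.2, adjusted p = 5.26e-07). WDR5, a core subunit of the KMT2 methyltransferases, fell in U937 by 0.63 (adjusted p = 6.17e-05) and 0.70 (2.75e-05), and NPM1, the nucleolar chaperone, by 0.87 (5.71e-06) and 0.44 (0.000751).

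Of the Polycomb genes (18 listed), limma called 2 higher and 5 lower of 17 in IMS-M2 +FA (median -0.08), 3 and 4 of 17 in IMS-M2 -FA (0.01), 6 and 1 of 18 in U937 +FA (0.17), and 4 and 7 of 18 in U937 -FA (-0.21). PCGF1, a subunit of a variant Polycomb complex, fell in all 4, by 0.89, 0.84, 0.80 and 1.09 on the log2 scale. PHF19, which helps to place the complex with EZH2 on chromatin, fell in IMS-M2 +FA from 72.9 ± 11.1 to 23.9 ± 3.37 FPKM (log2 -1.57, adjusted p = 2.31e-07). SUZ12, a core subunit of that complex, rose in IMS-M2, by 0.80 and 0.35, and in U937 -FA, by 0.6. BMI1 rose in U937 -FA from 131.1 ± 61.7 to 571.1 ± 78.2 FPKM (log2 2.25, adjusted p = 0.000742), with a wide spread in DMSO.

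Genes reported as targets of HOXA9 and MEIS1 (18 listed) went both ways. Limma called 6 higher and 7 lower of 17 in IMS-M2 +FA (median -0.07), 5 and 7 of 17 in IMS-M2 -FA (-0.08), 6 and 1 of 16 in U937 +FA (0.07), and 6 and 5 of 16 in U937 -FA (0.07). PIM1, a survival kinase, rose in all 4, by 1.62, 1.27, 1.67 and 2.06, and ID2, an inhibitor of E-proteins, by 1.62, 1.55, 2.51 and 2.52. SPI1, the myeloid master regulator PU.1, fell in all 4. Its mean in IMS-M2 +FA was 85.1 ± 6.49 FPKM in DMSO and 11.4 ± 1.18 FPKM in OTX, and in IMS-M2 -FA it was 87.9 ± 6.61 and 19.0 ± 1.35 FPKM. CD34, the surface marker of stem and progenitor cells, fell in IMS-M2 +FA from 29.5 ± 2.81 to 3.65 ± 0.0725 FPKM (log2 -2.71, adjusted p = 2.73e-10), where HOXA9 rose.

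Myeloid markers were present in both lines, 6 of 11 averaging 1 FPKM or more in IMS-M2 (summed level 122.0 to 275.2 FPKM per library) and 8 of 11 in U937 (1224.1 to 2982.7 FPKM). They were CD33, SPI1, CEBPA, LYZ, ITGAM and PTPRC in both lines, with CEBPE and ELANE in U937 only. The listed genes MPO, CSF1R and CD14 were not among them in either line. ELANE had the highest mean of the list in U937, 967.6 FPKM. Markers of other cell types that averaged 1 FPKM or more were, in IMS-M2, CD3E (1 of 5 T cell markers), CD79A (1 of 4 B cell), EPOR (1 of 6 erythroid), ITGA2B, GP9 and GP1BA (3 of 4 megakaryocyte) and KRT8 and KRT18 (2 of 5 epithelial). In U937 they were CD4, CD79A and EPOR, and 0 of the megakaryocyte and epithelial genes. Stromal markers had 0 of 5 in both lines.

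The genes that followed a member most closely were found by Pearson's r over the 8 groups among 10220 genes. Group means of log2(FPKM + 1) were first centred within each line, so the difference in level between the lines plays no part. For HOXA9 these were C4orf3, C1orf52 and C6orf211, each with r = 0.996. For MEIS1 they were SPAG5 (0.986), RCBTB1 (0.975) and FAM46C (0.974). The 8 points share the 4 tables and their scaling, and among so many genes some come close to any pattern.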

How the data were processed

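The values are FPKM made by the authors. The column headers name no unit, and it was taken from the fractional values and the layout of the tables. Per the submitters' processing notes, the build was hg19 and the tools were Cuffdiff 2.2.1, TopHat2 2.1.1 and bcl2fastq 2.17.1.14, with no role given. Libraries were TruSeq Stranded mRNA, per the labels' protocols. Depth is unknown, so no counting interval was computed. In the U937 -FA table columns are numbered from 0 and labels from 1, so these libraries were assigned to groups only and are called columns.

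Each line's 12 libraries, or all 24 for line differences, were fitted with limma 3.58.1 (R 4.3.3) on log2(FPKM + 1), with group means and an intensity trend. A gene entered the test if any group mean reached 1 FPKM, and was called at an adjusted p below 0.05. The fold changes understate low genes. The fit was tested on simulated data. All 10 members were named, and up to 3 called genes with the smallest p per direction were eligible from each list. Some genes of the lists are not reported here and were left out of the counts. The members and lists were chosen with earlier results of these data known. Symbols unlike those in the tables were matched through RefSeq, and KMT2A is MLL there. GC content and length came from GENCODE 29 transcripts. Alternatives were a pseudocount of 0.1, no filter or a filter of 5 FPKM, median-ratio rescaling, the 6 libraries of a table alone, the replicate number as a block, and each library left out. Removing GC or length trends and summing HOXA9 with HOXA10-HOXA9 were chosen after seeing the data.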

Additional observations from a re-analysis of the deposited data

Results flagged for a closer look

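Each result here is a difference between 2 OTX effects that passed the test of the difference itself (limma, adjusted p below 0.05). Between folic acid conditions, the HOXA10 change in IMS-M2 was lower without folic acid by a log2 of -0.96. That call was lost in 10 of 12 fits with 1 library left out, with no filter (adjusted p = 0.0927), with median-ratio rescaling (0.0582) and with the length trend removed (0.0649). Between lines with folic acid, the signed change in U937 minus that in IMS-M2 was above 0 for HOXA7 (0.81), HOXA11 (1.14), MEIS1 (1.37) and PBX3 (0.51). Without folic acid it was above 0 for HOXA4 (0.57), HOXA5 (0.85), HOXA7 (1.40), HOXA9 (1.07), HOXA10 (1.94) and HOXA11 (1.68). HOXA7 fell in IMS-M2, by 1.01 and 1.32, and was not called in U937 (-0.20 and 0.08). The HOXA4 call was lost in 5 of 12 fits with 1 library left out. For HOXA11 the OTX effect itself had opposite signs, lower in IMS-M2 and higher in U937, in both folic acid conditions, and was called in each. Its call in IMS-M2 +FA was lost with the GC trend removed (-0.16, limma, adjusted p = 0.0761).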

How the results depend on the processing

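The counts of members and genes called in the 4 OTX comparisons and the 2 line differences stayed within 1.5 times under every alternative run. Of 1361 alternative values of member changes, 1285 stayed on the same side of the threshold, 31 lost a call, 45 gained one and 0 reversed a called sign. Among the 1285 are 29 in which the sign changed with neither value called.

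The folic acid differences moved. In IMS-M2, where 779 genes and 1 member were called, there were 445 genes and 0 members with no filter, 1920 and 2 with the replicate block (HOXA5 joining HOXA10), 0 members with median-ratio rescaling or the length trend removed, and 2120 genes with the GC trend removed. Leaving out 1 library gave 82 to 3429 genes, the most without IMS-M2 +FA DMSO replicate 1, and 0 to 4 members. In U937, where 225 genes and 0 members were called, there were 31 genes with a pseudocount of 0.1, 128 with no filter, 145 with the GC trend and 380 with the length trend removed. Leaving out 1 library gave 1 to 2704 genes, the most without column 1 of U937 -FA DMSO, then 2184 without U937 +FA DMSO replicate 1, and 0 to 4 members. The cause was not tested.

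Deviations of same-numbered libraries correlated at 0.0521 to 0.276 in IMS-M2, where every number but replicate 1 of +FA correlated best with itself. In U937 +FA they correlated at -0.336 to 0.129, and none correlated best with its own number. Replicate 2 leaned least to GC-rich genes in every IMS-M2 group. The labels do not say that a number marks a batch. Whether same-numbered IMS-M2 libraries share one was not tested, and the main fit holds no block for it. With the block, HOXA9 in U937 +FA had adjusted p = 0.0782. HOXA4 gained a call in IMS-M2 -FA (0.0286) and in the line difference with folic acid (0.0298). No block was possible for U937 -FA, whose columns carry no label's number. Depth is unknown.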
